A study of Mus musculus with 2 samples.

Results

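The 10 genes described here, F5, F10, F13a1, Serpinb2, Plau, Plaur, Thbs1, Thbd, Pf4 and Procr, act in blood coagulation and fibrinolysis, and each was found by its symbol as 1 of the 31053 genes in the deposited matrices. RNA was counted in single cells of the colonic lamina propria, the connective tissue under the epithelium, in droplets with 10x 3' V3 chemistry. The cells came from male C57BL/6 mice aged 6 to 8 weeks and kept free of specific pathogens. One library was labelled wild type, and the other came from mice labelled deficient in lncly6c (1700016P04Rik), a long noncoding RNA whose gene was removed with CRISPR-Cas9. With 1 library per group, no test between them was possible. How many animals went into a library is not given in the sources used here. The study was designed to examine how lncly6c affects macrophage differentiation, per its design text.

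The libraries are called wild-type-labelled and deficient-labelled, and paired values are given in that order. The genotype words in the names of the deposited files are the reverse of the labels. If the file names were right, every direction between the libraries would be exchanged. No UMI (unique molecular identifier, 1 counted RNA molecule) of lncly6c was present in either library, so the deleted gene could not serve as a check. The matrices held 3020 and 6133 barcodes with 23384895 and 54773076 UMIs, and 7 barcode sequences occurred in both. The cell filter kept 2610 and 5890 cells, whose median depths were 6205 and 7849 UMIs.

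Coagulation proceeds through serine proteases that are assembled on membranes with cofactors. Factor X is the protease that, together with its cofactor factor V, turns prothrombin into thrombin, and factor XIII cross-links the fibrin that thrombin makes. Thrombin bound to thrombomodulin (Thbd) activates protein C, a step that the endothelial protein C receptor (Procr) enhances and that limits clotting. Urokinase (Plau), held at the cell surface by its receptor (Plaur), turns plasminogen into the fibrin-degrading plasmin and is inhibited by plasminogen activator inhibitor 2 (Serpinb2). Thrombospondin 1 (Thbs1) and platelet factor 4 (Pf4) are best known from platelet granules, and monocytes and macrophages are known sources of several of these proteins outside the liver.

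Cells were assigned to classes by markers that include none of the 10 genes, and every class name stands for cells that look like that type by their RNA. Some gates lay near the boundary to another class: 45 and 50 Ly6c-high monocytes, 55 and 152 intermediate cells and 11 and 43 macrophages had a score less than 1.2 times that of the next class. Of 10 myeloid classes, 7 held at least 50 cells in each library and were compared between them. These were Ly6c-high monocytes (158 and 228 cells), intermediate monocyte-macrophages with Ptgs2, Il10 and Cd14 (324 and 1086), macrophages with C1q genes (155 and 398), neutrophils (243 and 111), cDC1 (156 and 508), cDC2 (400 and 739) and mature dendritic cells (90 and 336). Ly6c-low monocytes (40 and 29), Retnla macrophages (26 and 82) and eosinophils (125 and 25) are shown but not compared as gated classes. In each class at least 3 of its own markers were among the 10 genes that set it apart most. Levels are CPM, the UMIs of a gene over the UMI total of the class on the usual scale of that unit, with exact Poisson 95% intervals. These intervals cover counting error only, as do those of ratios, and differences between animals cannot be told apart from differences between the libraries. B cells, a class not expected to make most of these RNAs, served as the gauge of free RNA in droplets, with median depths of 4407.5 and 3514.5 UMIs. A UMI of F5, F13a1, Serpinb2, Plau or Pf4 was found in at most 3.82% of B cells in either library. The other members were not all low there. Plaur stood at 263 and 180 CPM in B cells and Thbs1 at 4.96 and 19.8 CPM. Procr had 2.48 and 14.9 CPM, F10 0 and 13.6 CPM, and Thbd 0 and 1.32 CPM. At least 1 UMI of any of the 10 genes was found in 1521 of 1717 and 3196 of 3542 cells of the myeloid classes.

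The windows before the transcription start are shown for 4 genes with clear class patterns below, chosen after their values were seen: F5 and Serpinb2 (eosinophils), F10 (monocytes) and Pf4 (macrophages). RefSeq entries on GRCm38.p6 were matched for 7 of the 10 genes. Each sequence holds the 250 bases upstream of the start, 5′ to 3′ on the strand of the gene. Capitals mark matches to the motifs of C/EBP, AP-1, ETS, GATA and NR4A factors, searched on both strands. F5 at chr1:164151585-164151834, plus strand, lies just upstream of the gene at chr1:164151838-164220277.
F5: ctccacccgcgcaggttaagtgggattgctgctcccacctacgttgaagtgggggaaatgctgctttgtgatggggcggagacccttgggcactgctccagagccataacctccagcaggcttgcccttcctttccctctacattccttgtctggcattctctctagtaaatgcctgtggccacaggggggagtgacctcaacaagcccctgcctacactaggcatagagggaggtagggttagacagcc
Serpinb2 at chr1:107511173-107511422, plus strand, precedes the gene at chr1:107511423-107535478.
Serpinb2: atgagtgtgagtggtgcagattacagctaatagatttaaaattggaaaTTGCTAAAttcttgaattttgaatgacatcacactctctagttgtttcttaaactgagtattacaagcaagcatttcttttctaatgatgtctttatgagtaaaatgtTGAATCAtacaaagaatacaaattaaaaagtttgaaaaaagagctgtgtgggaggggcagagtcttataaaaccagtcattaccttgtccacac
F10 at chr8:13037058-13037307, plus strand, precedes the gene at chr8:13037308-13056676.
F10: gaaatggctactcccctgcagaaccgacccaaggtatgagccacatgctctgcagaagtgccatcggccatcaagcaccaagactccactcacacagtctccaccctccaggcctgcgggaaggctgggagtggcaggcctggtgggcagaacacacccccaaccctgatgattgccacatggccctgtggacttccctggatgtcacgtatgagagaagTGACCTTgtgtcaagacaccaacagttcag
Pf4 at chr5:90772185-90772434, plus strand, precedes the gene at chr5:90772435-90773383.
Pf4: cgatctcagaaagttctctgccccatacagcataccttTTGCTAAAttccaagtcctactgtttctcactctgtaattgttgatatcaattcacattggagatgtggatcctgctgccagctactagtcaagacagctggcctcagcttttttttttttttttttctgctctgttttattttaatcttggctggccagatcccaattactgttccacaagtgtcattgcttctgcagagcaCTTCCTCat
None of the 5 motifs matched in the F5 window. The Serpinb2 window held a C/EBP match and an AP-1 match, the F10 window an NR4A match, and the Pf4 window a C/EBP and an ETS match. Serpinb2 and Pf4 carried the same letters, TTGCTAAA, at 202 to 195 and at 212 to 205 bases before the start, although these genes were highest in different classes. The C/EBP motif was searched as TTGCNNAA, and it occurred in 4 of the 7 genes with an entry and in 9.56% of all 32851 windows of the RefSeq table. The AP-1 motif, TGANTCA, occurred in 3 of 7 genes and in 6.75% of all windows. The ETS motif, GAGGAAG, occurred in 3 of 7 genes and in 10.6% of windows. The GATA motif, written AGATAA, occurred in 1 of 7 genes and in 9.99% of windows. The NR4A motif, AAGGTCA, occurred in 1 of 7 genes and in 4.08% of windows. A gene with more than 1 entry counted when any of its windows matched. A match describes the letters and not a bound site.

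**Figure D1:**
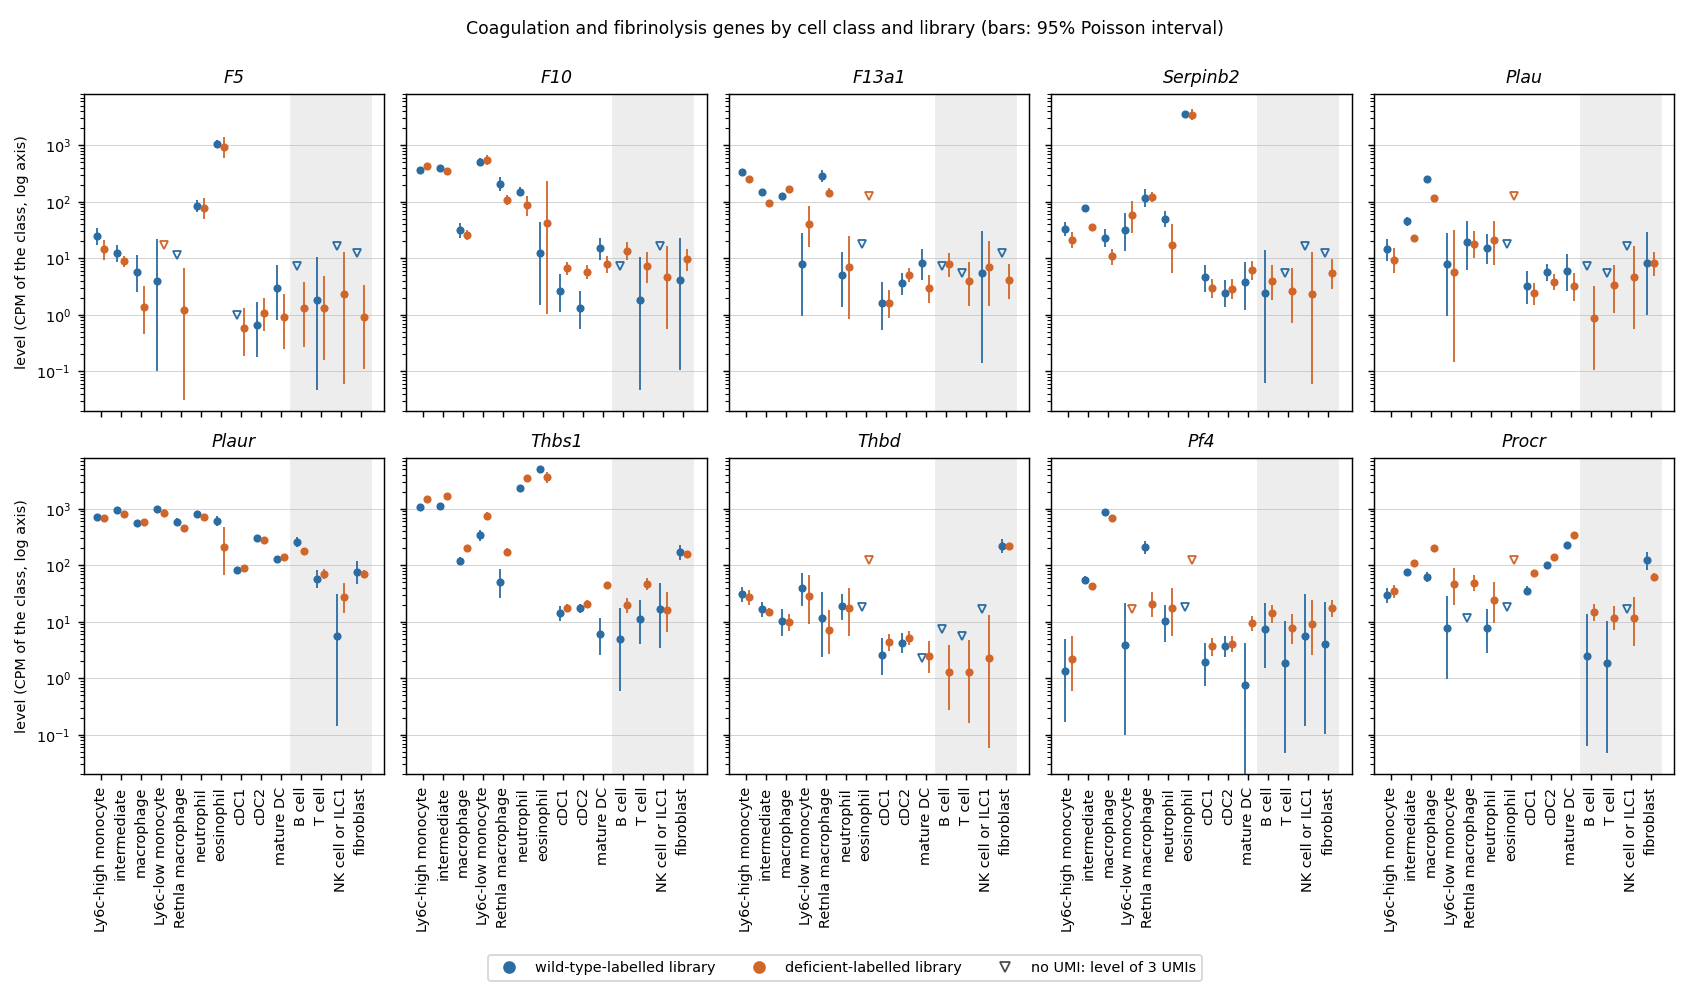
Level of each gene (CPM of the class, log axis) in 14 cell classes, with 1 point per library and bars for the exact Poisson 95% interval. Open triangles stand at 3 UMIs where none was counted, and the grey field holds the lymphoid and stromal classes. F5 and Serpinb2 peak in eosinophils, Pf4 and Plau in macrophages, and Thbs1 in eosinophils and neutrophils, in both libraries.

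F5 (chromosome 1), the cofactor that factor Xa needs for efficient cleavage of prothrombin, was an eosinophil gene in these cells. Its level in eosinophils was 1060.1 CPM (95% interval 908 to 1230.0) in the wild-type-labelled library and 953 CPM (604 to 1429) in the deficient-labelled library. Neutrophils followed at 84.4 and 79.3 CPM, Ly6c-high monocytes at 24.6 and 14.5 CPM, and intermediate cells at 12.2 and 8.82 CPM. Both libraries gave the same order of these 4 classes, with eosinophils far above the rest. B cells held 0 and 3 F5 UMIs. Among eosinophils, 59.2% (74 of 125) and 64.0% (16 of 25) held an F5 UMI, with exact Clopper-Pearson 95% intervals of 50.1 to 67.9% and 42.5 to 82.0%. These cells were shallow, with medians of 1229 and 936 UMIs.

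Factor X (F10, chromosome 8), the protease at the meeting point of the extrinsic and intrinsic pathways, was a monocyte gene. It stood at 369 and 438 CPM in Ly6c-high monocytes and at 390.1 and 358 CPM in intermediate cells, whose intervals overlapped in the wild-type-labelled library. The small Ly6c-low monocyte class had the highest levels, 509 CPM (425 to 605) and 544 CPM (441 to 666), the second of which overlapped that of Ly6c-high monocytes. Macrophages held far less, 31.96 and 25.7 CPM. Neutrophils lay between at 151 and 86.2 CPM. After each cell was thinned to 1000 UMIs, 29.1% and 27.5% of Ly6c-high monocytes still held an F10 UMI, against 2.08% and 2.12% of macrophages. The cDC1, cDC2 and mature dendritic cells all stayed at or below 15.04 CPM, near the 13.6 CPM of B cells in the deficient-labelled library, where the wild-type-labelled B cells had 0 UMIs.

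F13a1 (chromosome 13, minus strand), the catalytic subunit of the fibrin-crosslinking transglutaminase, was spread over monocytes and macrophages. Ly6c-high monocytes had 340 CPM (311 to 371) and 253 CPM (230.0 to 277), intermediate cells 150.1 and 96.1 CPM, and macrophages 126 and 171 CPM. Retnla macrophages, which express the secreted protein Retnla and lipoprotein lipase, reached 288 and 146 CPM. Neutrophils had only 4 and 2 F13a1 UMIs, and no F13a1 UMI was counted in eosinophils. Thus F10 and F13a1 shared the Ly6c-high monocytes and parted in the macrophages and in the Ly6c-low monocytes. In the latter F13a1 had 7.90 and 40.1 CPM, from only 40 and 29 cells. Over the whole cluster of Ly6c-low monocytes (76 and 68 cells) F13a1 stood at 38.5 and 40.1 CPM. Among Ly6c-high monocytes with an F10 UMI, 80.0% and 66.4% also held an F13a1 UMI, against 31.7% and 39.0% of those without one. Cells with more UMIs are more likely to hold both, so these shares describe the cells with depth included.

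Serpinb2 (chromosome 1), the inhibitor of urokinase that mostly stays inside cells, was the other eosinophil gene. Eosinophils held 3637 CPM (3351 to 3941) and 3479 CPM (2775 to 4308), and 80.0% of them in each library (100 of 125 and 20 of 25) held a Serpinb2 UMI, with intervals of 71.9 to 86.6% and 59.3 to 93.2%. Retnla macrophages followed at 119 and 122 CPM, and intermediate cells had 76.3 and 35.6 CPM. Here few cells carried the RNA, since 16.7% and 9.76% of intermediate cells held any Serpinb2 UMI and single cells held up to 32 and 30. The dendritic classes and B cells stayed at or below 6.19 CPM.

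Plau (chromosome 14), which encodes urokinase, was a macrophage gene with 254 CPM (228 to 282) and 116 CPM (105 to 128). Intermediate cells followed at 45.0 and 22.8 CPM, and Ly6c-high monocytes at 14.3 and 9.46 CPM were close to neutrophils. In both libraries the order ran from macrophages over intermediate cells to monocytes, and the macrophage intervals overlapped with those of no other class of at least 50 cells. Eosinophils had 0 UMIs in both libraries. A Plau UMI was present in 54.8% (85 of 155) and 42.7% (170 of 398) of macrophages, with intervals of 46.7 to 62.8% and 37.8 to 47.7%.

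Plaur (chromosome 7), the membrane-anchored urokinase receptor, was the most widely shared member. It reached 949 and 801 CPM in intermediate cells, 821 and 720.4 CPM in neutrophils, 712 and 682 CPM in Ly6c-high monocytes and 556 and 578 CPM in macrophages. Ly6c-low monocytes had 987 and 842 CPM, with intervals that overlapped those of intermediate cells. The dendritic classes were lower, with 306 and 281 CPM in cDC2, 129 and 138 CPM in mature dendritic cells and 82.7 and 90.4 CPM in cDC1. B cells had 263 and 180 CPM and T cells 57.7 and 71.3 CPM. The 9 macrophage markers summed to 863 and 1192 CPM in B cells and to 68.9 and 451 CPM in T cells. Of these markers 6 were detected in wild-type-labelled B cells, where C1qc, Cd163 and Mertk were at 0. In deficient-labelled B cells 8 were detected, with only Mertk at 0. The part of these markers in the Plaur values was not tested. At equal depth of 1000 UMIs the share of cells with a Plaur UMI was 58.4% and 53.5% in intermediate cells, 53.4% and 56.6% in neutrophils and 23.5% and 17.4% in B cells. Receptor and ligand occurred together in macrophages, where 89.4% and 88.8% of the cells with a Plau UMI also held a Plaur UMI, against 48.6% and 65.8% of those without, with cell depth not equalised.

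Thbs1 (chromosome 2), a large matrix glycoprotein of platelet granules that binds CD47 and CD36, was the member with the most UMIs, 10419 and 25852. Eosinophils held 5167 CPM (4825 to 5526) and 3604 CPM (2886 to 4445), and neutrophils 2318 CPM (2212 to 2427) and 3488 CPM (3277 to 3710). Intermediate cells and Ly6c-high monocytes came next, at 1110.7 and 1699 CPM and at 1073 and 1503 CPM. Macrophages were low at 119 and 204 CPM, and cDC1 and cDC2 stood between 14.1 and 20.9 CPM in both libraries, beside 4.96 and 19.8 CPM in B cells. Thbs1 was thus high in granulocytes, Ly6c-high monocytes and intermediate cells and low in macrophages and dendritic cells. It was held unevenly, and the 10% of intermediate cells with the most Thbs1 UMIs held 61.0% and 42.2% of them, and single cells held up to 198 and 123 UMIs.

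**Figure D2:**
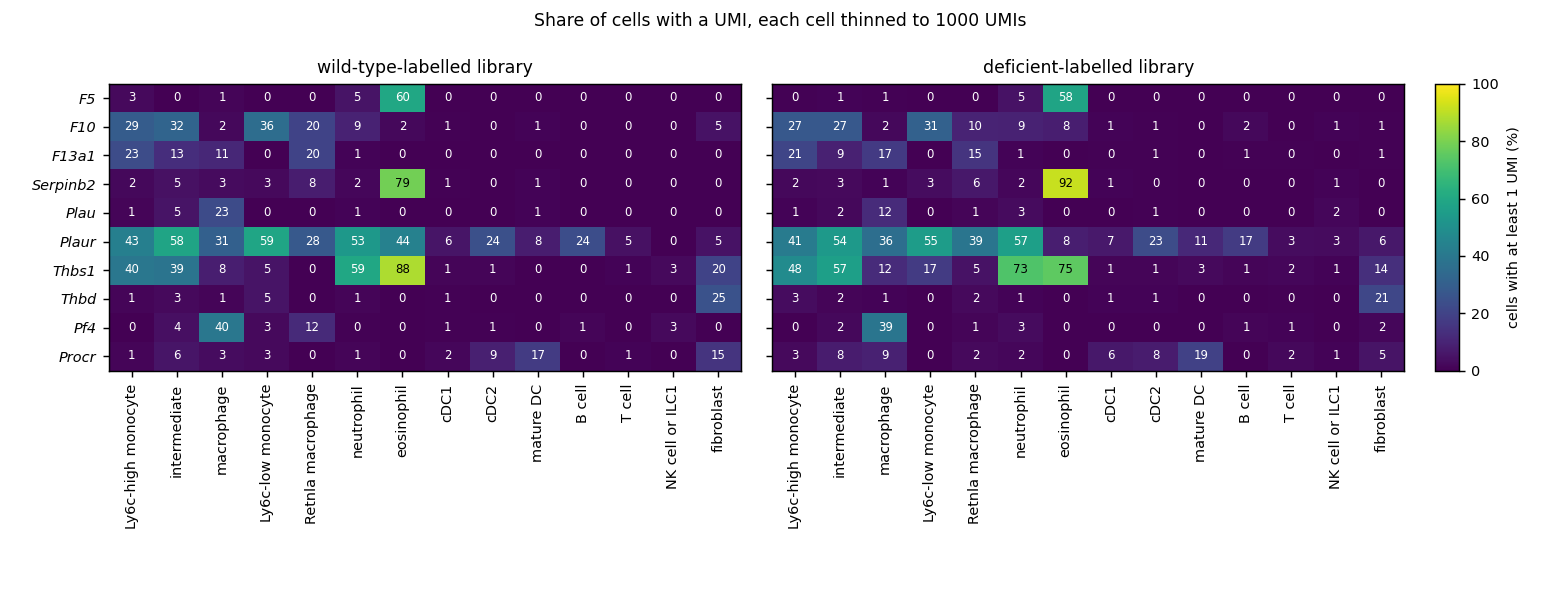
Share of cells with at least 1 UMI of each gene (percent, by colour and number) after each cell was thinned to 1000 UMIs, for 14 classes and both libraries. Serpinb2, Thbs1 and F5 were found in most eosinophils, and Plaur in 28.0% to 59.0% of cells of the monocyte, macrophage and neutrophil classes; the deficient-labelled eosinophil column rests on 12 cells.

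Pf4 (chromosome 5), the heparin-binding chemokine named for platelets, was a macrophage gene here. Macrophages had 875 CPM (826 to 925) and 699 CPM (672 to 727), and 67.7% and 65.1% of them held a Pf4 UMI, with intervals of 59.8 to 75.0% and 60.2 to 69.8%. Intermediate cells had 54.3 and 43.8 CPM, and Ly6c-high monocytes 1.36 and 2.23 CPM, below the 7.44 and 14.1 CPM of B cells. Over the 8 platelet and megakaryocyte markers the summed level in macrophages was 2.91 and 4.70 CPM, from 4 and 17 UMIs. Gp9, Gp1bb, Tubb1, Treml1 and Gp6 were at 0 in macrophages of both libraries. The level of Pf4 in Retnla macrophages was 211 CPM in the wild-type-labelled library, but 55 UMIs in 4 of 26 cells made it up, and the level was 20.7 CPM in the deficient-labelled library. Pf4 and F13a1 were found together: 77.5% and 89.2% of macrophages with an F13a1 UMI held a Pf4 UMI, against 64.3% and 54.7% of those without, again with depth not equalised.

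The 2 receptors of the protein C pathway differed in their pattern. Procr (chromosome 2) was highest in mature dendritic cells, with 232 CPM (206 to 259) and 340 CPM (322 to 357). It was present in cDC2 at 102 and 139 CPM, in intermediate cells at 74.9 and 108 CPM, in macrophages at 62.5 and 201 CPM and in cDC1 at 35.8 and 72.3 CPM. Fibroblasts had 123 and 62.8 CPM, neutrophils 7.67 and 24.1 CPM, and the 75 plasma cells of the deficient-labelled library 99.5 CPM. Thbd (chromosome 2, minus strand), the thrombin receptor thrombomodulin, was highest outside the myeloid cells, with 221 and 220.4 CPM in fibroblasts, of which the wild-type-labelled library held only 20. Among myeloid classes Ly6c-high monocytes had 30.7 CPM (22.4 to 41.1) and 27.3 CPM (20.2 to 36.1), the small Ly6c-low class 39.5 and 28.7 CPM, and the dendritic classes at most 5.27 CPM. The dendritic cells thus held Procr with little Thbd, while fibroblasts held both.

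Across the 23 sums of a class in a library with at least 50 cells, the genes that followed the members most closely were ranked by Pearson's r of log2(CPM + 10), given as a description because the sums share 2 libraries. F5 was most like Rab44 (r = 0.97), Slc6a13 (0.95) and the eosinophil gate marker Ccr3 (0.94), and Serpinb2 was most like Ankrd66 (0.91), the granulocyte factor Cebpe (0.91) and Gapt (0.90). Pf4 was most like the complement genes C1qa and C1qc (both 0.95) and Ms4a7 (0.94), which were also gate markers of macrophages. Plau was most like Stab1 (0.93), Lair1 (0.91) and Ccl12 (0.91). F10 followed Sod2 (0.92), Sirpb1c (0.90) and AI839979 (0.90), and F13a1 followed Clec4a3 (0.95), Apobec1 (0.94) and Tlr7 (0.93). Thbs1 followed Sgms2 (0.95), the transcription factor Cebpb (0.95) and Mindy1 (0.93), and Plaur followed Il10ra (0.92) and Atp6v0b (0.91). Procr was closest to Clic4, Hax1 and Cxcl16 (all 0.89), and Thbd to Selenbp1 (0.93), Igf2bp2 (0.92) and Cebpd (0.91). Between members the highest values were 0.91 for Plau with Pf4, 0.84 for F5 with Serpinb2 and 0.79 for F10 with F13a1.

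Members were then compared between the libraries within each class, as the log2 of the CPM in the deficient-labelled library over that in the other library with the exact conditional 95% interval. A gene counted as measured in a class with at least 50 UMIs over both libraries, and differences past 1.5-fold were counted. Of 47 measured pairs of a member and a class, 17 were past 1.5-fold, 8 higher and 9 lower in the deficient-labelled library. Over the 7 classes, between 4.20% and 15.1% of all measured genes were past it in 1 direction. Thbs1 was higher in the deficient-labelled library in 7 of 7 classes and Procr in 6 of 6, whereas Serpinb2, Plau and F5 were lower in 3 of 3 classes each. Only 1 of the F5 ratios was past 1.5-fold, and the F5 intervals in Ly6c-high monocytes and neutrophils included no difference. How many of all genes kept 1 direction in every class was not counted. Thbs1 levels in the dendritic classes lay near those of lymphocytes. They were 14.1 and 17.5 CPM in cDC1, 17.3 and 20.9 in cDC2 and 6.01 and 44.5 in mature dendritic cells. B cells had 4.96 and 19.8 CPM and T cells 11.2 and 47.5 CPM, and the part of free RNA in these ratios was not tested. Some directions of members between the libraries turned with the processing. Thbs1 in cDC1 reached -0.62 as a mean over cells, Procr in intermediate cells -0.58 and in mature dendritic cells -0.56 with classes from clusters, and F5 in neutrophils 0.16 with a stricter gate.

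**Figure D3:**
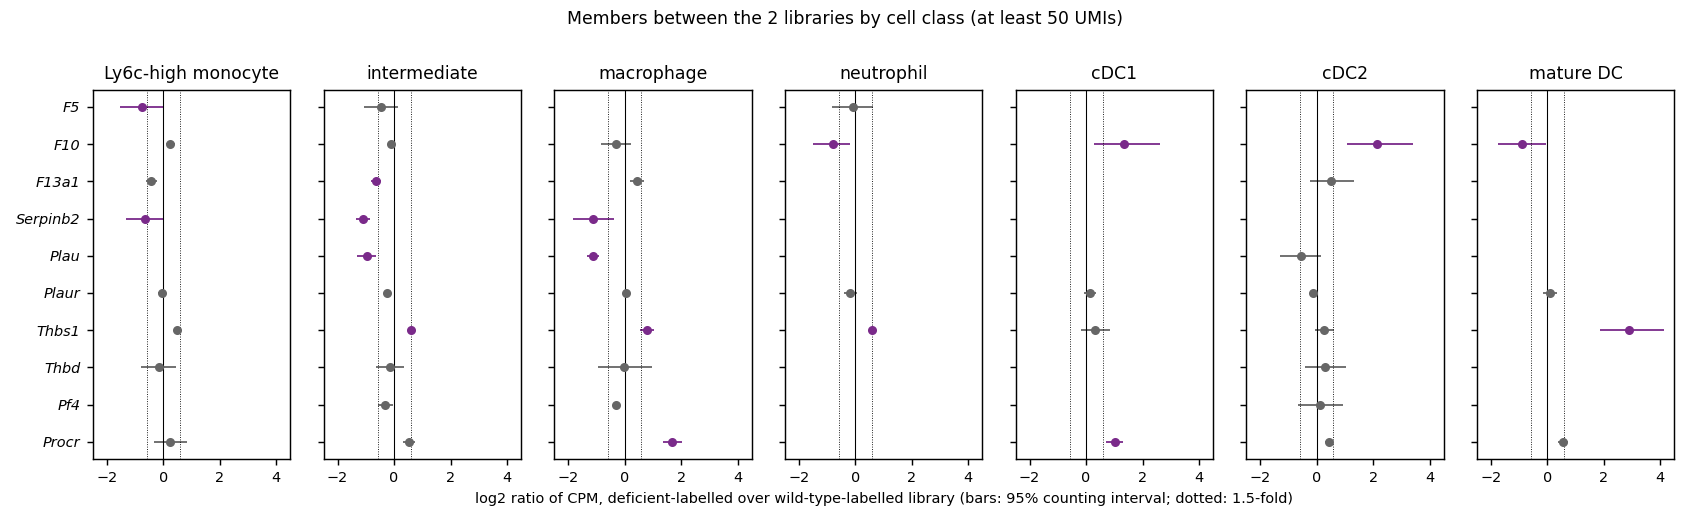
Log2 of the CPM ratio (positive where the deficient-labelled library is higher) for each member with at least 50 UMIs in each of 7 myeloid classes. Bars show the 95% counting interval, dotted lines 1.5-fold, and purple points lie past it; Thbs1 and Procr lie to the right of 0 and Serpinb2 and Plau to the left in every class where they were measured, although alternative processing turned Thbs1 in cDC1 (-0.62), Procr in intermediate cells (-0.58) and mature dendritic cells (-0.56) and Serpinb2 in intermediate cells (0.14).

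In Ly6c-high monocytes 0 of 8 measured members were higher past 1.5-fold and 2 were lower, beside 5.93% and 6.51% of all 5578 measured genes. The 2 were Serpinb2 (log2 ratio -0.66, -1.31 to -0.02) and F5 (-0.76, -1.55 to 0.00), both with few UMIs, 49 and 38 of Serpinb2 and 36 and 26 of F5. Thbs1 was higher by 0.49 (0.40 to 0.58) and F13a1 lower by 0.43 on the log2 scale (log2 ratio -0.43, -0.61 to -0.24), short of 1.5-fold. F10 was higher by 0.25 (0.09 to 0.41), and the interval of Plaur (-0.06, -0.18 to 0.06) included no difference. When cells were grouped by clusters in place of gates, 5 members were past 1.5-fold in this class. The share of all genes past it was not counted for that grouping.

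In intermediate cells 1 of 10 measured members was higher and 3 were lower, beside 9.26% and 5.32% of 8436 genes. Thbs1 was higher (0.61, 0.56 to 0.67), while Serpinb2 (-1.10, -1.35 to -0.84), Plau (-0.98, -1.31 to -0.65) and F13a1 (-0.64, -0.81 to -0.47) were lower. The median over the 10 members was -0.28, beside 0.05 over all measured genes. Plaur (-0.24, -0.31 to -0.18), Pf4 (-0.31, -0.59 to -0.03) and F10 (-0.12, -0.22 to -0.02) were slightly lower, and Procr (0.53, 0.31 to 0.75) was higher short of 1.5-fold. The class spanned several clusters, and the largest differed between the libraries: 98 of 324 cells fell in a cluster led by Gdf15 and Ptgs2 in the wild-type-labelled library, and 403 of 1086 in a cluster led by Chil3 and Ly6c2 in the deficient-labelled library.

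Within both of these clusters Thbs1 was higher in the deficient-labelled library and Plau lower. In the Chil3-led cluster Thbs1 stood at 1160 and 2661 CPM (log2 ratio 1.199, 1.105 to 1.29), and in the Gdf15-led cluster at 926 and 2058 CPM (1.15, 1.04 to 1.27). Plau stood at 23.2 and 16.7 CPM in the first (-0.48, -1.24 to 0.33) and at 58.2 and 22.8 CPM in the second (-1.35, -1.94 to -0.76). In the smaller Retnla-led part of the class (20 and 48 cells) Thbs1 was higher too, at 321 and 677 CPM (1.08, 0.71 to 1.46), but in the Ace-led part (27 and 25 cells) it stood at 1190.5 and 1117 CPM (-0.09, -0.38 to 0.20). An Arg1-led part held 22 intermediate cells of the wild-type-labelled library, with 891 Thbs1 UMIs at 5569 CPM. That part held fewer than 20 cells of the other library, so no ratio was taken. Over all 43 and 34 cells of the Arg1-led cluster Thbs1 stood at 4667 and 1682 CPM. F13a1 and Serpinb2 did not differ alike. In the Chil3-led cluster F13a1 was at 297 and 148 CPM (-1.005, -1.23 to -0.78), and in the Gdf15-led cluster at 64.4 and 89.97 CPM (0.48, 0.04 to 0.95). Serpinb2 was at 59.8 and 34.7 CPM in the first (-0.78, -1.27 to -0.28) and at 39.7 and 45.6 CPM in the second (0.20, -0.38 to 0.82). In the Retnla-led part F13a1 was at 246 and 72.1 CPM (-1.77, -2.39 to -1.16) and Serpinb2 at 246 and 36.9 CPM (-2.74, -3.53 to -1.99). With classes taken from clusters, the log2 ratios over the intermediate class were 0.07 for F13a1 and 0.14 for Serpinb2, so the direction of neither held, and that of F13a1 did not hold under a stricter gate either (0.07). The summed level of the 7 eosinophil markers in intermediate cells was 78.8 and 44.2 CPM, with 4 and 6 markers detected. In macrophages it was 30.5 and 18.8 CPM, with 4 and 5 detected, and in Ly6c-high monocytes 37.5 and 32.3 CPM, with 3 and 3. Epx was at 0 in intermediate cells of both libraries, but also in the gated eosinophils of both. Adgre4 is on the Ly6c-low monocyte list too, and the eosinophil list summed to 426 and 315 CPM in Ly6c-low monocytes. The part of the eosinophil list in the Serpinb2 values was not tested. The 8 neutrophil markers summed to 596 and 239 CPM in Ly6c-high monocytes and to 544 and 396 CPM in intermediate cells. The 9 macrophage markers summed to 2141 and 3369 CPM in intermediate cells. The part of either list in these values was not tested.

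In macrophages 2 of 9 measured members were higher and 2 were lower, beside 10.8% and 5.38% of 7027 genes. Procr had the largest ratio, with 62.5 CPM (49.97 to 77.2) and 201 CPM (187 to 216), a log2 ratio of 1.68 (1.36 to 2.02), and Thbs1 was higher by 0.78 (0.53 to 1.03). Plau was lower (-1.13, -1.34 to -0.92), and so was Serpinb2 (-1.11, -1.82 to -0.39) on 32 and 39 UMIs. Pf4 was lower by less (-0.32, -0.42 to -0.22), F13a1 was higher by less (0.44, 0.20 to 0.69), and Plaur barely differed (0.06, -0.06 to 0.18). Part of the Procr UMIs came from a cluster led by Il22ra2 that held 27 macrophages, all of the deficient-labelled library, at 581 CPM; this cluster had 1 cell of the wild-type-labelled library in all. Within the main macrophage cluster, led by Mmp13 (106 and 268 cells), Procr stood at 58.1 and 155 CPM (1.42, 1.01 to 1.85), Thbs1 at 108 and 265 CPM (1.30, 0.996 to 1.61), Plau at 325 and 152 CPM (-1.09, -1.32 to -0.87) and F13a1 at 136 and 257 CPM (0.92, 0.65 to 1.21).

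**Figure D4:**
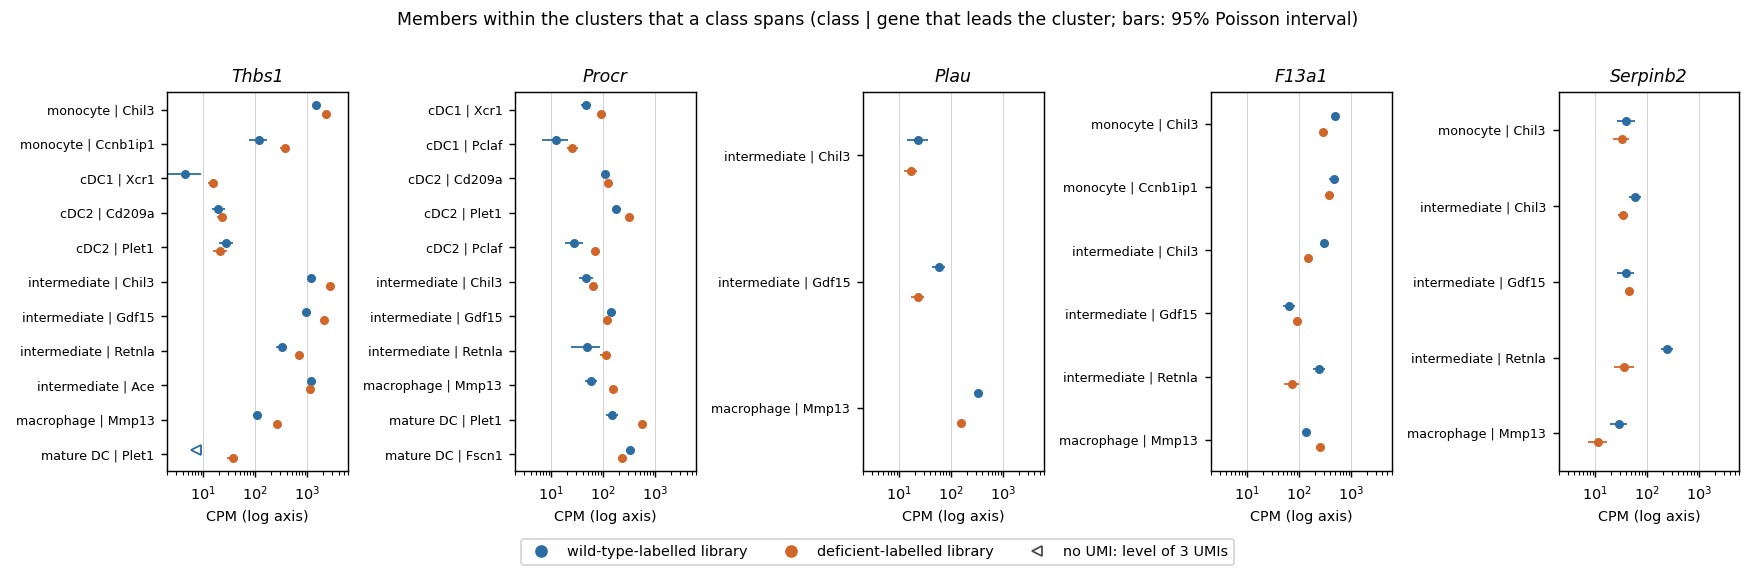
Level (CPM, log axis) of 5 members in the cells of a class that fall in 1 cluster, for clusters with at least 20 such cells in each library and at least 50 UMIs; bars are exact Poisson 95% intervals. Thbs1 is higher in the deficient-labelled library in the Chil3-led, Gdf15-led and Mmp13-led clusters, Plau is lower in all 3 places shown, and F13a1 lies higher in some clusters and lower in others; the triangle stands at 3 UMIs where none was counted.

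In neutrophils 1 of 4 measured members was higher and 1 lower, beside 13.6% and 10.6% of 2281 genes. Thbs1 was higher by 0.59 (0.48 to 0.70), just past 1.5-fold, and F10 was lower (-0.81, -1.49 to -0.18) on 118 and 25 UMIs. F5 (-0.09, -0.84 to 0.61) and Plaur (-0.19, -0.42 to 0.04) had intervals that include no difference. Nearly all neutrophils, 240 and 109, fell in 1 cluster.

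Among dendritic cells Procr was higher in all 3 classes. It was higher by 1.02 in cDC1 (0.72 to 1.32), by 0.45 in cDC2 (0.31 to 0.59) and by 0.55 in mature dendritic cells (0.37 to 0.73). In cDC1, 2 of 4 measured members were higher and 0 lower, beside 5.57% and 6.86% of 8669 genes. In cDC2, 1 of 8 was higher and 0 lower, beside 5.80% and 4.20% of 9100 genes. In mature dendritic cells 1 of 4 was higher and 1 lower, beside 15.1% and 6.36% of 6587 genes. The other calls rested on few UMIs: F10 had 8 and 58 in cDC1 and 8 and 54 in cDC2, at 6.65 and 5.81 CPM in the deficient-labelled library, below the 13.6 CPM of its B cells. As a mean over cells the ratio of F10 in cDC1 turned to -1.34. F10 in mature dendritic cells was lower (-0.91, -1.74 to -0.04) on 20 and 35 UMIs, 16 of them from a single cell of the wild-type-labelled library. Thbs1 in mature dendritic cells had 8 and 194 UMIs, 50 of them in a single cell, and stood at 6.01 and 44.5 CPM, beside 4.96 and 19.8 CPM in B cells and 11.2 and 47.5 CPM in T cells.

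The largest cluster of mature dendritic cells differed between the libraries, with 42 of 90 cells in a cluster led by Fscn1 and 127 of 336 in one led by Plet1. Both clusters held cells of both libraries, the first 42 and 78 and the second 24 and 127. Procr was at 148 and 551 CPM in the Plet1-led cluster (log2 ratio 1.90, 1.52 to 2.30) and at 323 and 225 CPM in the Fscn1-led cluster (-0.52, -0.81 to -0.23), so its direction differed between the clusters of this class. In cDC1 it was higher in both clusters measured, with 46.8 and 88.9 CPM in the Xcr1-led and 12.3 and 25.5 CPM in the cycling Pclaf-led cluster. In cDC2 it was higher in all 3 clusters measured, from 0.19 (-0.02 to 0.41) in the Cd209a-led to 1.32 (0.69 to 2.01) in the Pclaf-led cluster. Procr had 2.48 and 14.9 CPM in B cells, 1 and 34 UMIs, so the free-RNA level of this gene was higher in the deficient-labelled library too, and its part in the smaller differences was not tested.

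Of the 17 differences past 1.5-fold, those of Plau and Procr in macrophages, Plau in intermediate cells, Procr in cDC1 and Serpinb2 in Ly6c-high monocytes were past it under every alternative that gave a value, as were F10 in cDC2 and Thbs1 in mature dendritic cells. With a stricter gate, F10 in cDC2 and Serpinb2 in Ly6c-high monocytes had fewer than 50 UMIs and gave no value. Procr in macrophages ranged from 1.06 to 2.41 and Plau there from -1.54 to -1.02. Thbs1 was higher under every alternative in the classes where it was called, but its lowest ratio was 0.38 in intermediate cells, 0.44 in macrophages and 0.43 in neutrophils, short of 1.5-fold. The smallest differences were -0.16 for Serpinb2 in macrophages, -0.44 for F5 in Ly6c-high monocytes, -0.01 for F10 in neutrophils and -0.02 for F10 in mature dendritic cells.

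Eosinophils were too few after gating for a comparison, but the whole cluster that held them, led by Serpinb2, Ccr3 and Alox15, had 420 and 242 cells. Serpinb2 stood there at 3507 and 3072 CPM (log2 ratio -0.19, -0.33 to -0.06), Thbs1 at 4875 and 3323 CPM (-0.55, -0.68 to -0.43), F5 at 869 and 622 CPM (-0.48, -0.78 to -0.19) and Plaur at 647 and 375 CPM (-0.79, -1.17 to -0.42). All 4 of these, the members with the most UMIs there, were lower in the deficient-labelled library while Thbs1 was higher in that library in neutrophils and over all Ly6c-high monocytes; this difference was not tested. An Arg1-led cluster of 43 and 34 cells also had less Thbs1 in the deficient-labelled library, 4667 and 1682 CPM. As a cluster its markers named it Ly6c-high monocyte, but 22 of its 43 wild-type-labelled cells were gated as intermediate cells. Of the eosinophil cluster 150 cells passed the eosinophil gate, and gates of other classes were dropped for 211, of which 121 were neutrophil gates. Gated eosinophils held the neutrophil markers at 7256 and 5260 CPM, beside 3235 and 3065 CPM of their own markers, and the part of this in the values was not tested. In this cluster 22.4% of 2174 measured genes were past 1.5-fold, and the median depth was 977 and 711 UMIs. F13a1 had 0 UMIs in both libraries.

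The Retnla-led cluster held 59 and 170 cells, and there the members differed widely while 16.4% of 5199 measured genes were past 1.5-fold. Pf4 stood at 315 and 40.5 CPM (log2 ratio -2.96, -3.35 to -2.58), on 234 and 78 UMIs in 20 and 23 cells. Plau (-1.63, -2.27 to -1.002), F13a1 (-1.42, -1.71 to -1.14) and F10 (-1.06, -1.38 to -0.73) were lower in the deficient-labelled library too, and Procr was higher (1.40, 0.70 to 2.18). Thbs1 was higher by 0.48 (0.22 to 0.75).

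Part of the RNA of each gene lay in cells without a class. The gated myeloid classes held 55.1% and 53.5% of all F5 UMIs and 47.0% and 51.0% of all Serpinb2 UMIs, while ungated cells held 44.7% and 43.2% and 52.3% and 46.5%. The largest group of ungated cells, 295 of 600 and 217 of 981, lay in the cluster of the eosinophils. For F10, F13a1, Plaur, Thbs1, Pf4 and Procr the myeloid classes held between 74.3% and 85.1% of the UMIs, and for Thbd 62.5% and 35.1%.

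Of 60 other genes of coagulation and fibrinolysis, in 6 lists chosen for their roles, between 9 and 24 were measured in a class. In intermediate cells 1 of 24 was higher past 1.5-fold and 2 were lower, beside 9.26% and 5.32% of all genes, with a median log2 ratio of -0.03. In macrophages 2 of 20 were higher and 1 was lower, beside 10.8% and 5.38%, with a median of 0.25. In Ly6c-high monocytes 1 of 14 (Mcfd2) was higher and 1 (Sdc4) lower, beside 5.93% and 6.51%. In neutrophils 1 of 9 was higher, S100a10, on 20 and 60 UMIs, beside 13.6%. In mature dendritic cells 5 of 17 were higher, beside 15.1% of all genes. The 5 were Entpd1, Lrp1, Plat, S100a10 and Tgm2, by 0.60 to 1.04. Among initiators and factors, tissue factor (F3), which starts coagulation, had 10.8 and 5.07 CPM in intermediate cells (-1.09, -1.78 to -0.38) and was highest in fibroblasts at 204 and 58.7 CPM. Factor VII (F7), its partner protease, stayed low, at 12.3 and 16.1 CPM in Ly6c-high monocytes, and Vwf, the platelet-tethering factor, had 5.91 and 9.74 CPM in cDC1. Among anticoagulants, Pros1 (protein S) had 24.0 and 28.5 CPM and Gas6, its relative, 95.9 and 80.7 CPM in macrophages, while Tfpi, the inhibitor of tissue factor, had 5.81 and 9.95 CPM.

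The plasminogen system was represented by its surface receptors. S100a10 and Anxa2, which form a plasminogen-binding complex, had 864 and 963 CPM and 762 and 790.3 CPM in Ly6c-high monocytes, and Eno1 had 301 and 276 CPM. In this list 1 of 8 measured genes was higher in intermediate cells and 2 of 8 were higher in macrophages. The higher genes were Serpinb6a in both classes and Plat, tissue plasminogen activator, in macrophages. Of the partners of thrombospondin and platelet factor 4, Cd47 had 431 and 494 CPM in Ly6c-high monocytes and Selplg 227 and 225 CPM. Sdc4, a heparan sulfate proteoglycan, had 1212 and 954 CPM in macrophages and 207 and 99.6 CPM in Ly6c-high monocytes (-1.05, -1.33 to -0.78). The thrombin receptor F2r and its relatives F2rl2 and F2rl3 reached 50 UMIs in none of the 7 classes. Of the genes for the vitamin K cycle and factor secretion, Tpst2 had 59.4 and 86.8 CPM, Mcfd2 35.6 and 44.3 CPM and Lman1 26.99 and 24.7 CPM in intermediate cells, where 0 of 5 measured were past 1.5-fold.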

How the data were processed

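The deposited matrices hold UMI counts per gene and barcode without normalization. The submitters' processing notes name Cell Ranger, STAR 2.5.1b and the build mm10, and the file headers give software version 3.0.2. The cell filter asked for 200 genes, 500 UMIs and no more than 20% mitochondrial UMIs, and no doublets were removed. Each cell was scored against lists of markers by the mean of its markers' log-scaled UMIs per 10000, each relative to the 95th percentile of its positive cells. A gate needed 2 markers and a score 1.1 times the next class. A gate was dropped where the cell lay in a cluster that held at least 90% of the cells of another class. Scores, margin and dropped gates were set after the data were seen. Clusters (29) came from 2000 variable genes, 30 principal components and Leiden clustering at resolution 1 without the 10 genes and the pathway genes. The members and all lists were chosen with earlier results of these data known.

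UMIs were summed over a class and scaled to CPM; a count of 0 was set at 3 counts for ratios. Named genes were all members, the 3 genes most like each, up to 3 genes per pathway list by UMIs in myeloid classes, and, chosen after their values were seen, other pathway genes past 1.5-fold. Some genes that this rule would name are not reported here. Gene positions came from GENCODE vM21 on mm10 and windows from RefSeq. The ratio code was tested on simulated data. Clustering used scanpy 1.11.5, scikit-learn 1.9.0 and leidenalg 0.10.2, intervals scipy 1.17.1, tables pandas 2.3.3 with numpy 2.4.6, and figures matplotlib 3.10.9, under Python 3.11.15. Alternatives covered cell filters, gates, doublets, denominators, UMI minimums, thinning and pseudocounts.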

Additional observations from a re-analysis of the deposited data

How the results depend on the processing

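No paired analysis was possible because each group was 1 library. Over up to 9 alternatives, 14 of the 17 ratios past 1.5-fold kept their direction, and 8 were past 1.5-fold in all that gave a value, F10 in cDC1 among them in opposite directions. The 3 that turned are F13a1 (0.073 with classes from clusters and 0.072 with a stricter gate margin), Serpinb2 (0.14 with classes from clusters), both in intermediate cells, and F10 in cDC1 (-1.34 as a mean over cells). Among recomputed ratios 344 stayed within the counting interval, 57 moved outside it and 4 reversed; among levels 141 stayed and 39 moved. The highest class stayed as reported for 10 of 10 members except with classes from clusters (9, F10 moving to Ly6c-high monocytes) and a stricter gate (8, F10 and Plaur moving to intermediate cells).

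Counts of members past 1.5-fold moved as follows, where the cause was not tested unless the rule itself changed. The share of all measured genes past the same cut was not counted under these alternatives. The counts below therefore have no background beside them and describe only how the calls depend on the settings. With classes from clusters they were 5 in Ly6c-high monocytes, 1 in neutrophils and 5 in cDC2. With a stricter gate they were 1, 1 and 0 in these classes. With high doublet scores removed (54 and 278 cells) they were 1 in Ly6c-high monocytes, 1 in cDC1, 2 in cDC2 and 1 in mature dendritic cells. In cDC2 they were 3 with stricter cell filters, 3 as a mean over cells and 2 with no gate dropped, an alternative added after the data were seen, as was leaving out the Il22ra2-led cluster, which gave 5 in macrophages beside 4. A minimum of 20 UMIs gave 5 in cDC1 and 6 in mature dendritic cells, and 6 and 7 other pathway genes in intermediate cells and macrophages; a minimum of 100 gave 0, 1, 0 and 1 in Ly6c-high monocytes, cDC1, cDC2 and mature dendritic cells. At 2-fold the counts were 0 in Ly6c-high monocytes, 1 in intermediate cells, 0 in neutrophils and 1 in mature dendritic cells. A pseudocount of 1 kept 16 of the 30 genes named as most like a member. With another thinning depth or none, 15 shares stayed within the interval and 42 moved; no deficient-labelled eosinophil reached 2000 UMIs, so that alternative gave no share there. Depth limits rare members: with 1 library per group, intervals cover counting error only, and in small classes a few cells decide a level.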
